A study of Mus musculus with 9 samples.

Results

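Genes of glucose uptake, glycolysis and the entry of pyruvate into mitochondria were followed in RNA sequencing of mouse pancreatic islets. The 40 members are named genes of these steps, from the glucose transporters to the pyruvate dehydrogenase complex, its kinases and phosphatases, pyruvate carboxylase and the fructose bisphosphatases. They were found by gene symbol among 46316 symbols in the count table, and all 40 were among the 16761 genes with enough counts to be tested. Islets came from 3 groups of 3 samples: untreated db/+ mice, untreated db/db mice, and db/db mice treated with imeglimin and metformin together. The db allele is a mutation of the leptin receptor gene: db/db mice, with 2 copies, develop obesity and diabetes, and db/+ mice, with 1 copy, are their controls, so all groups carry the allele. Both drugs lower blood glucose, and no group received either drug alone. The sources used here do not give the strain, age, dose, length of treatment or mice per sample. Whether the 3 samples of a group are separate animals is not labelled, and p-values therefore rest on a spread between samples that may be technical.

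Glycolysis splits glucose into pyruvate in the cytosol. Pyruvate then crosses the inner mitochondrial membrane through a dedicated carrier and is either oxidised to acetyl-CoA by the pyruvate dehydrogenase (PDH) complex or carboxylated to oxaloacetate by pyruvate carboxylase. In beta cells this chain couples the blood glucose level to insulin release: glucose enters through a low-affinity transporter, lactate dehydrogenase and lactate transport are held low, and both mitochondrial routes of pyruvate are used.

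Each library held 10292664 to 15281806 counts over all genes, of which the members took 0.25% to 0.303%. The label of islets fitted the marker genes: the insulin genes alone took 23.1% to 34.8% of counts in db/+ libraries and 14.2% to 20.7% in db/db libraries. Some libraries stood apart in markers of other cells. Summed acinar markers (digestive enzyme genes) reached 1982, 291 and 1153 CPM (counts relative to the library total, scaled by TMM factors) in untreated db/db libraries 1 to 3, 230, 395 and 160 in treated ones and 49.3 to 154 in db/+ libraries. Summed lymphocyte markers were 378, 66.0 and 46.4 CPM in untreated libraries, between 14.4 and 18.5 in db/+ and between 3.55 and 9.42 in treated libraries. Summed markers of alpha, delta and pancreatic polypeptide cells were 10951, 22325 and 9938 CPM in treated libraries 1 to 3. They were 18010 to 24204 in untreated and 19233 to 28677 in db/+ libraries. Endothelial sums were 682 to 785 CPM in db/+ and 392 to 546 in db/db libraries. The part of these cells in the members' values was not tested, apart from the fits without each library.

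Between untreated db/db and db/+ islets 21 of the 40 members passed the test, against 63.2% of all genes tested: 11 were higher in db/db islets, against 31.3% of all genes, and 10 lower, against 32%. Called means an adjusted p under 0.05 from edgeR's quasi-likelihood test with Benjamini-Hochberg adjustment over all genes. The share of members called was thus somewhat below that of all genes, but whether 40 genes differ from all genes in this was not tested. The median absolute log2 fold change was 0.49 over the members and 0.63 over all genes. At least 2-fold differences that passed the test were found in 12 members, a like share to the 28.7% of all genes. Between treated and untreated db/db islets 0 of 40 members passed edgeR's test, against 0.179% of all genes. At an unadjusted p under 0.05 there were 3 members, against 17.4% of all genes, and limma-voom called 0 members, against 0.0418% of all genes. DESeq2 called 2 members, against 3.77% of all genes. Between treated db/db and db/+ islets 23 members passed, against 65.2% of all genes: 13 were higher, against 32.8%, and 10 lower, against 32.5%. Groups did not overlap for 22 members between untreated db/db and db/+ islets, against 67% of all genes, and for 25 between treated db/db and db/+ islets, against 71%. The comparisons share libraries, so their values are given side by side and no agreement between them was tested. Without untreated library 1, the one richest in acinar and lymphocyte markers, the test called 10 members higher and 9 lower against db/+, against 29.6% and 30.4% of all genes.

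**Figure D1:**
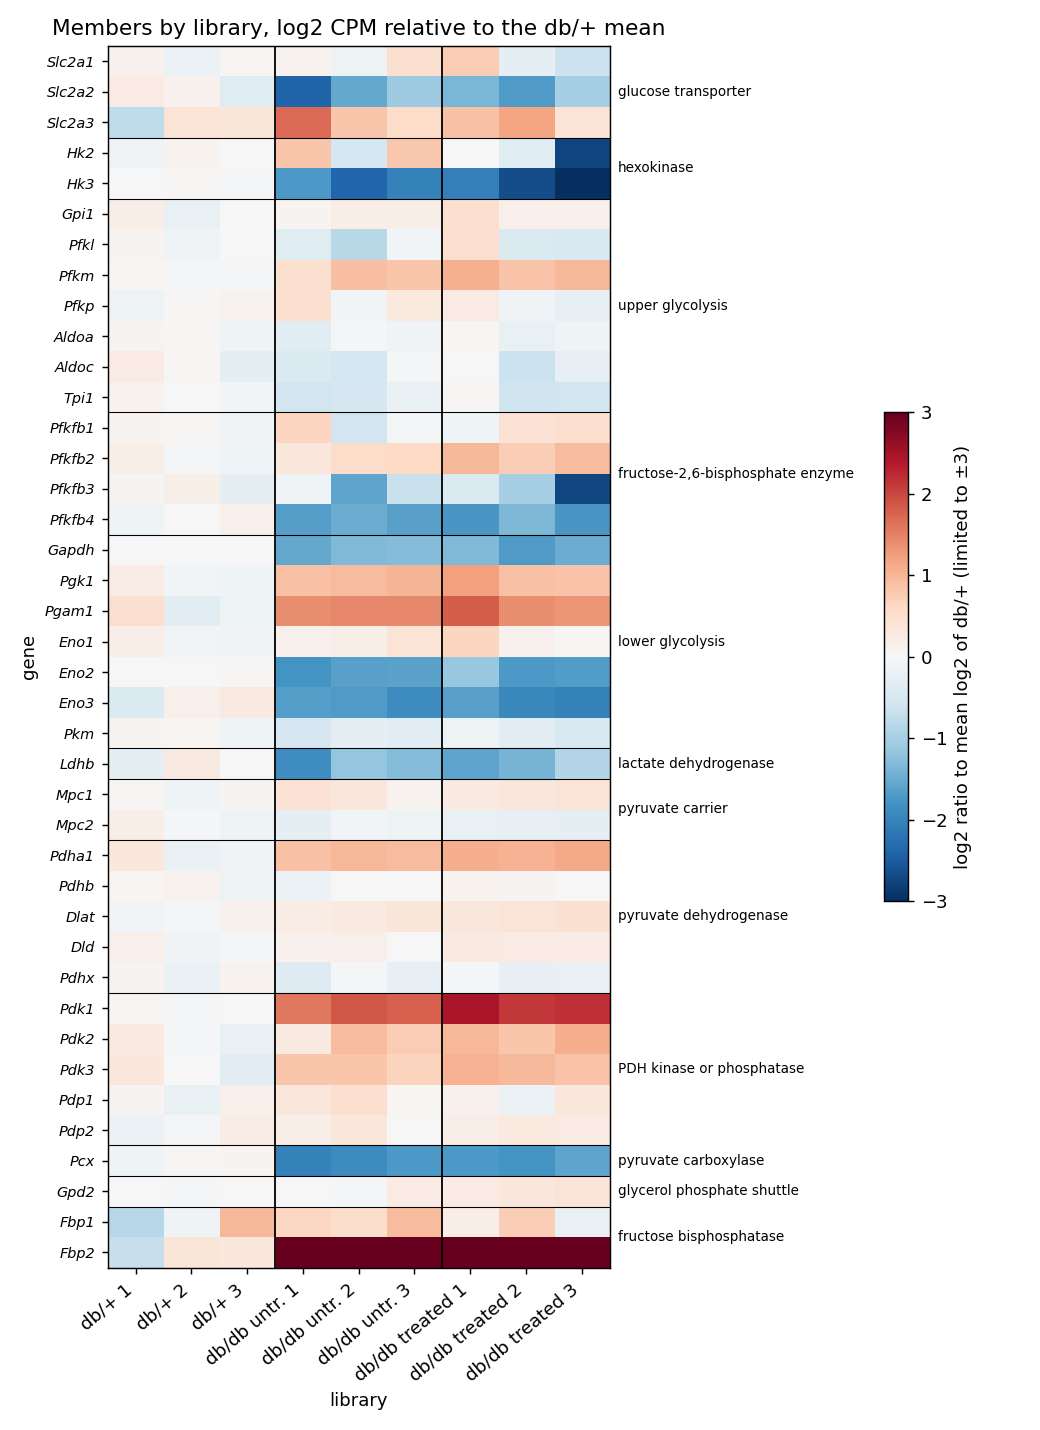
Log2 CPM of the 40 members in each of the 9 libraries, relative to the mean log2 CPM of the 3 db/+ libraries, ordered by role, with red higher, blue lower and colours limited to 3 either way. Pdk1, Pgam1 and Fbp2 are red and Pcx, Eno2, Gapdh and Pfkfb4 blue in all 6 db/db libraries, while the colours of Hk2 and Pfkfb3 differ between libraries of 1 group.

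Among the glucose transporters the low-affinity transporter of beta cells fell and the ubiquitous one did not pass the test in either comparison with db/+. Slc2a2, which encodes GLUT2, stood at 148, 136 and 96.1 CPM in db/+ libraries 1 to 3, at 23.7, 42.9 and 58.3 in untreated db/db libraries and at 48.3, 38.3 and 62.1 in treated ones. Each of the 6 db/db libraries lay below all 3 db/+ libraries, and the db/db groups overlapped. The log2 fold change to db/+ was -1.60 ± 0.35 (SE, adjusted p = 0.00531) in untreated and -1.35 ± 0.35 (adjusted p = 0.0105) in treated islets. In these bulk samples fewer cells of a type and less RNA per cell cannot be told apart. Of the 10 beta-cell markers in the table, 7 were called lower and 1 higher in untreated db/db islets, against 32% and 31.3% of all genes. Iapp, the beta-cell peptide amylin, was at 9561 to 18998 CPM in db/+ libraries and at 30601 to 39187 in untreated ones. Slc2a1, which encodes the ubiquitous GLUT1, stood at 27.3, 21.8 and 25.7 CPM in db/+ libraries, 26.8, 22.2 and 34.8 in untreated and 42.3, 20.2 and 15.9 in treated db/db libraries. The 3 groups overlapped, and its lowest and highest values both came from treated libraries. Per kilobase of transcript, Slc2a1 made up 16.7% ± 3.7 (SD, n = 3) of the 3 transporters in db/+ libraries, 39.6% ± 8.5 in untreated and 32.8% ± 12.8 in treated db/db libraries, while Slc2a2 went from 82.4% ± 4.0 to 56.3% ± 11 and 64.2% ± 13.1.

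Slc2a3, which encodes the high-affinity GLUT3 of neurons and many blood cells, was scarce at 1.09, 2.45 and 2.38 CPM in db/+ libraries. It stood at 5.99, 3.28 and 2.70 in untreated and 3.39, 4.19 and 2.45 in treated db/db libraries. All db/db libraries lay above all db/+ libraries, the nearest pair only just, and its level was highest in the untreated library with the highest lymphocyte marker sum. The rise in untreated islets (log2 1.01 ± 0.38, adjusted p = 0.0342) was lost without that library (0.61, adjusted p = 0.161) and without db/+ library 1 (0.81, adjusted p = 0.0986). It also missed the threshold, at a like size, without db/+ library 2 (1.21, adjusted p = 0.0511), with limma-voom (0.99, adjusted p = 0.0546) and with a replicate block (0.97, adjusted p = 0.0633). The treated group was at 0.76 (adjusted p = 0.0999).

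Of the hexokinases, which phosphorylate glucose on entry, Hk3 fell and Hk2 varied between libraries of 1 group. Hk3, the isoform of white blood cells, stood at 9.996, 10.1 and 9.53 CPM in db/+ libraries, 3.00, 1.89 and 2.42 in untreated and 2.40, 1.57 and 1.03 in treated db/db libraries. Both db/db groups lay below db/+ without overlap, at log2 values of -2.02 ± 0.28 (adjusted p = 4.02e-05) in untreated and -2.57 ± 0.29 (adjusted p = 6.02e-06) in treated islets. Markers of macrophages differed among themselves. In untreated islets against db/+ 6 of the 12 were higher and 2 lower, against 31.3% and 32% of all genes. Their sum was 161 to 174 CPM in db/+ libraries, 205 to 274 in untreated and 182 to 207 in treated ones, with C1qa, Lyz2 and Cd14 as large parts of it. Cd68, by contrast, stood at 12.5 to 14.4, 8.76 to 11.5 and 5.69 to 6.78 CPM, and C1qb at 19.1 to 23.4, 11.5 to 17.1 and 10.9 to 13.3, so that both were lower in every db/db library than in every db/+ library. The part of these cells in the Hk3 values was not tested, and neutrophil markers summed to at most 4.47 CPM in any library.

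Hk2, the isoform of muscle and of cells in low oxygen, stood at 7.32, 8.46 and 7.84 CPM in db/+ libraries, 14.1, 5.42 and 13.9 in untreated and 7.97, 6.15 and 1.16 in treated db/db libraries. The highest treated library was 6.86 times the lowest, against 2.60 times in untreated and 1.16 times in db/+ islets. Its log2 fold change was 0.49 ± 0.62 (adjusted p = 0.513) in untreated islets against db/+, and -1.13 ± 0.62 (adjusted p = 0.391) in treated against untreated islets. Pfkfb3, whose enzyme makes the phosphofructokinase activator fructose-2,6-bisphosphate, had a like order of libraries: 109, 116 and 84.9 CPM in db/+, 94.95, 34.5 and 64.9 in untreated and 76.1, 51.1 and 15.6 in treated db/db libraries. In Slc2a1, Hk2 and Pfkfb3 alike, untreated library 2 and treated library 3 were the lowest of their groups and treated library 1 was the highest of its own. The highest-to-lowest ratio of Pfkfb3 was 1.37 in db/+, 2.75 in untreated and 4.89 in treated islets, and that of Slc2a1 1.25, 1.56 and 2.67. Pfkl had ratios of 1.14, 1.71 and 1.95, with 38.1, 33.5 and 35.9 CPM in db/+, 27.6, 19.97 and 34.1 in untreated and 51.1, 26.5 and 26.1 in treated libraries. Pcx, by contrast, had ratios of at most 1.24 in any group.

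These genes were singled out after their values were seen, as was Ldha, which encodes the muscle-type lactate dehydrogenase subunit and is not a member. Ldha stood at 19.7, 15.7 and 16.4 CPM in db/+, 63.7, 21.3 and 48.8 in untreated and 35.3, 20.7 and 9.36 in treated db/db libraries, again lowest in untreated library 2 and treated library 3. Some markers of other cells had the same lowest libraries: acinar sums as given above, ductal sums of 844, 820 and 1542 CPM in untreated and 876, 988 and 701 in treated libraries, and stellate sums of 337, 253 and 612 and of 329, 413 and 253. Macrophage sums did too, at 274, 205 and 250 and at 184, 207 and 182. Endothelial sums were lowest in untreated library 2 but in treated library 1. Krt7, a large part of the ductal sum, differed, at 303, 323 and 344 CPM in untreated and 376, 357 and 389 in treated libraries. The highest libraries were not the same, since treated library 2, not 1, had the highest acinar, ductal and stellate sums of its group. The part of those cells in the members' values was not tested.

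**Figure D2:**
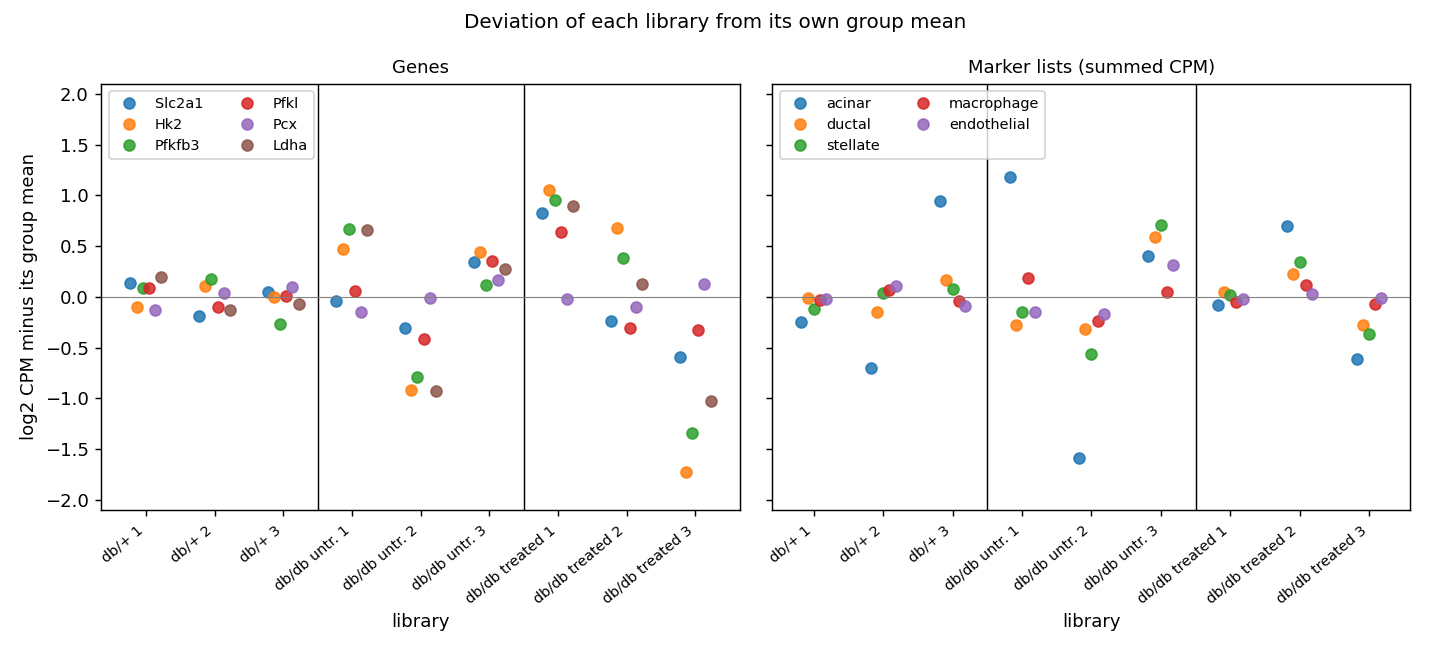
Deviation of each library from the mean log2 value of its own group, for 5 members and Ldha (left, log2 CPM) and for summed CPM of 5 marker lists (right, log2). Hk2, Pfkfb3, Slc2a1 and Ldha lie below their group means in untreated library 2 and treated library 3. The acinar, ductal, stellate and macrophage sums do too, while Pcx stays near its group means throughout.

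Because Slc2a1, Hk2 and Pfkfb3 had the same low libraries and, with Pdk1, are textbook targets of hypoxia-inducible factors in other cells, their promoter windows are shown. They were picked after their values were seen, and other members, such as Aldoa, Pgk1 and Pfkfb4, are textbook targets too. Each window is the 250 bases before an annotated start, from the RefSeq promoter table of build GRCm38.p6. Slc2a1 is at chr4:119108495-119108744 (plus strand), Hk2 at chr6:82774455-82774704 (minus), Pfkfb3 at chr2:11553930-11554179 and at chr2:11502091-11502340 (both minus), and Pdk1 at chr2:71872974-71873223 (plus). Sequences run 5′ to 3′ on the gene's strand, and capitals mark ACGTG or GCGTG, the core letters of the hypoxia response element, on either strand.
Slc2a1: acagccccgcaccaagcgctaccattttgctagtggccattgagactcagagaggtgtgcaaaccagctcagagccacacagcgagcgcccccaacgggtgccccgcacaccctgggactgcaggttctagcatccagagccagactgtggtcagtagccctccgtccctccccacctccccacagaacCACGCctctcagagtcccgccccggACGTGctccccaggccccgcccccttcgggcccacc
Hk2: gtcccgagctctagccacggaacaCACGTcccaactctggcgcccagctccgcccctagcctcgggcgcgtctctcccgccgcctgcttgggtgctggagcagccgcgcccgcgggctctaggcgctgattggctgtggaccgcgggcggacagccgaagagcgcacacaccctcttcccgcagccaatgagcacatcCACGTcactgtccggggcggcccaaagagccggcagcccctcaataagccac
Pfkfb3 start 1: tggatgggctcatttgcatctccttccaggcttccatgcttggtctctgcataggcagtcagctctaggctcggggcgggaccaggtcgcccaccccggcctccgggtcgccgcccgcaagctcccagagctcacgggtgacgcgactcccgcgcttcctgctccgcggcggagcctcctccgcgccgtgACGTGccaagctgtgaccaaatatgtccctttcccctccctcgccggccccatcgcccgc
Pfkfb3 start 2: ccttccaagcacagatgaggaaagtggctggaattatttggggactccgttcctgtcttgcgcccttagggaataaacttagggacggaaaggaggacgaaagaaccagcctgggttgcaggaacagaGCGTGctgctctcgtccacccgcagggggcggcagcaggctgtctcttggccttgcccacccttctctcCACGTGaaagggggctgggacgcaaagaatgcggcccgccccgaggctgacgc
Pdk1 start 1: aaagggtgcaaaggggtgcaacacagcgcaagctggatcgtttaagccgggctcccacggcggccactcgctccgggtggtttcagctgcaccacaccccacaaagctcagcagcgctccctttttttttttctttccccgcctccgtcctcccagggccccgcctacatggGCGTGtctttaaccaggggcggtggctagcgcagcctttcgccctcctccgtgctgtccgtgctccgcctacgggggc
Read on the other strand, ACGTG appears as CACGT and GCGTG as CACGC, and a CACGTG, as in the Pfkfb3 window of start 2, was counted once on each strand. The Slc2a1 window held 1 of each motif, the Hk2 window 2 ACGTG, the Pfkfb3 windows 1 ACGTG and, for start 2, 2 ACGTG and 1 GCGTG, and the first Pdk1 window 1 GCGTG. The window of the second Pdk1 start held neither. Over the 38 members with a window (Slc2a3 and Pdp1 had none), 17 held ACGTG at any start and 31 held either motif, against 18.5% and 41.5% of 27025 genes. Members had 58 windows and base composition was not matched, so these shares are a description of letters and say nothing of binding. Pdk1 did not follow the library order of the other genes: untreated library 2 was its highest untreated library. Other members, some of them textbook targets as well, differed in this too. Pgk1 was lowest in untreated library 1. Against db/+, Pgk1 was higher and Pfkfb4 lower in both db/db groups, and Aldoa did not pass. Untreated library 2 was the highest of its group for Pfkfb4, Aldoa and Pkm and the lowest for Pfkl, Pfkp and Hk3. Whether low oxygen had a part in any of these values was not tested.

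The 7 members of upper glycolysis after the hexokinase step changed little, apart from phosphofructokinase. Aldoa, which encodes the main aldolase, was the highest member per kilobase in all groups, at 295 ± 23 CPM per kilobase in db/+ (SD, n = 3), 263 ± 25 in untreated and 276 ± 29 in treated db/db islets. In CPM it stood at 497, 479 and 426 in db/+, 372, 447 and 432 in untreated and 489, 398 and 426 in treated libraries, with all groups overlapping. Pfkm, which encodes the muscle-type subunit of phosphofructokinase-1, the committing step, stood at 32.2, 30.2 and 30.1 CPM in db/+, 42.9, 57.3 and 54.5 in untreated and 64.0, 55.9 and 61.3 in treated libraries. It rose without overlap by 0.74 ± 0.11 (adjusted p = 0.000102) and 0.97 ± 0.11 (adjusted p = 9.1e-06) on the log2 scale. The liver-type Pfkl (-0.40 ± 0.29, adjusted p = 0.264) and the platelet-type Pfkp (0.24 ± 0.16, adjusted p = 0.199) did not pass in untreated islets, although Pfkp did without untreated library 2 (0.40, adjusted p = 0.0355). Per kilobase, Pfkm made up 38.2% ± 1.6 of the 3 subunits in db/+, 52.4% ± 7.5 in untreated and 55.9% ± 5.5 in treated libraries, and Pfkl 31.7% ± 1.5, 19.6% ± 4.0 and 22.0% ± 5.5.

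Tpi1, which encodes triose phosphate isomerase, was called lower in untreated islets (-0.42 ± 0.17, adjusted p = 0.0438) but lost the call in 10 of 18 alternatives, among them the fits without any 1 db/+ library or without untreated library 1 or 2 (adjusted p from 0.092 to 0.271). In treated islets it did not pass (-0.35 ± 0.17, adjusted p = 0.0806) unless treated library 1 was left out (-0.58, adjusted p = 0.00195). Aldoc, the brain-type aldolase, was at -0.33 ± 0.22 (adjusted p = 0.204) and -0.30 ± 0.22 (adjusted p = 0.24), and made up 0.929% to 1.07% of the aldolases in the group means. Gpi1, which encodes glucose-6-phosphate isomerase, ranged from 132 to 214 CPM over all libraries and was at 0.26 ± 0.12 (adjusted p = 0.0776) in treated islets against db/+, which passed without db/+ library 1 (0.38, adjusted p = 0.0125), with upper-quartile factors (0.31, adjusted p = 0.0357) and with no filter on low counts (0.297, adjusted p = 0.0471). In untreated islets it passed only without db/+ library 1 (0.33, adjusted p = 0.0256).

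Of the 4 enzymes that set fructose-2,6-bisphosphate, Pfkfb4 fell, Pfkfb1 and Pfkfb3 did not pass, and the direction of Pfkfb2 depended on the transcript. Pfkfb4 stood at 15.04, 16.5 and 18.3 CPM in db/+, 5.26, 5.92 and 5.34 in untreated and 4.94, 6.47 and 4.97 in treated db/db libraries. It fell without overlap, by 1.59 ± 0.16 (adjusted p = 3.49e-06) and by 1.60 ± 0.16 (adjusted p = 2.57e-06) on the log2 scale, and the db/db groups overlapped. Pfkfb1, the liver and muscle isoform, lay between 0.945 and 2.19 CPM in all libraries. Pfkfb3 was at -0.68 ± 0.60 (adjusted p = 0.359) in untreated and -1.12 ± 0.60 (adjusted p = 0.148) in treated islets against db/+.

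Pfkfb2, the heart-type isoform, stood at 64.5, 55.4 and 52.6 CPM in db/+, 70.8, 84.0 and 86.4 in untreated and 115, 95.9 and 111 in treated db/db libraries, with no overlap between any 2 groups. Its log2 fold change was 0.48 ± 0.11 (adjusted p = 0.00244) in untreated and 0.90 ± 0.11 (adjusted p = 1.67e-05) in treated islets against db/+, and 0.42 ± 0.11 (adjusted p = 0.11) between treated and untreated islets. The direction against db/+ depended on the transcript counted. The ratio of untreated to db/+ was 1.40 for the longest of its 5 transcripts (7308 bases, the one used) and 1.87 for the shortest (2382 bases). It was 0.68 to 0.73 for the other transcripts, of 3689, 3829 and 4652 bases, and with all transcripts added up the log2 fold change was -0.055 (adjusted p = 0.604). The ratio of treated to untreated islets was 1.33 to 1.496 in every one of the 5 transcripts.

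In lower glycolysis, from glyceraldehyde-3-phosphate to pyruvate, the 7 members moved in both directions, as did genes at large. In untreated as in treated islets against db/+, 2 rose, 4 fell and Eno1 did not pass. Over all genes 31.3% were higher and 32% lower in untreated islets, and 32.8% and 32.5% in treated ones. Pgam1, which encodes the common phosphoglycerate mutase, stood at 26.4, 15.3 and 17.2 CPM in db/+, 49.998, 51.8 and 52.1 in untreated and 67.0, 50.2 and 47.9 in treated libraries, and rose by 1.38 ± 0.19 (adjusted p = 0.000108) and 1.48 ± 0.19 (adjusted p = 5.48e-05) on the log2 scale. Pgk1, which encodes phosphoglycerate kinase, stood at 77.7, 62.9 and 61.7 CPM in db/+, 124, 129 and 137 in untreated and 158, 124 and 121 in treated libraries, and rose by 0.95 ± 0.12 (adjusted p = 2.93e-05) and 0.99 ± 0.12 (adjusted p = 1.59e-05). Both lay above db/+ in every db/db library, with the db/db groups overlapping.

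Gapdh, which encodes the dehydrogenase one step before Pgk1, went the other way. It stood at 46.4, 47.7 and 46.9 CPM in db/+, 16.3, 18.7 and 18.9 in untreated and 18.7, 14.5 and 16.8 in treated libraries, and fell without overlap by 1.39 ± 0.11 (adjusted p = 5.33e-07) and by 1.49 ± 0.11 (adjusted p = 2.4e-07). Its level per kilobase in db/+ islets, 36.9 ± 0.5 CPM, was below the 92.2 ± 6.3 of Tpi1 and the 295 ± 23 of Aldoa. Gapdh and several other glycolytic genes have many near-identical pseudogenes in the mouse genome, and how multiply aligned reads were counted is not given in the sources used here, so their levels are uncertain. The related genes in the table were nearly empty: Pgam2 and Pgk2 held 0 counts in every library and Eno1b, Gapdhs, Aldoart1 and Aldoart2 held 0 to 22. No Gapdh pseudogene is among these genes. If multiply aligned reads were left out, a gene and its copies would both lose them, so these counts leave the levels uncertain. A count of 0 allows a level of up to 3 counts in a library.

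The enolases shifted in composition. Eno2, the neuronal and endocrine enolase, stood at 280.0, 282 and 289 CPM in db/+, 81.6, 91.4 and 92.8 in untreated and 128, 86.1 and 88.6 in treated libraries, and fell by 1.68 ± 0.14 (adjusted p = 7.66e-07) and by 1.49 ± 0.14 (adjusted p = 1.43e-06). Eno3, the muscle enolase, stood at 51.6, 75.7 and 82.8 CPM in db/+, 21.9, 21.3 and 18.7 in untreated and 22.3, 17.9 and 16.9 in treated libraries, and fell by 1.76 ± 0.17 (adjusted p = 3.97e-06) and by 1.88 ± 0.17 (adjusted p = 1.98e-06). Neither overlapped with db/+. Eno1, the ubiquitous enolase, lay between 117 and 198 CPM in all libraries and did not pass (0.24 ± 0.16, adjusted p = 0.192, and 0.29 ± 0.16, adjusted p = 0.123), except in treated islets without treated library 3 (0.42, adjusted p = 0.0424). Eno1 thus made up 35.4% ± 4.7 of the 3 enolases per kilobase in db/+, 68.9% ± 1.8 in untreated and 67.9% ± 0.7 in treated libraries, and Eno2 46.9% ± 0.2, 24.2% ± 1.3 and 26.3% ± 1.0. The Eno2 to Eno1 ratio per kilobase was 1.34 ± 0.17, 0.352 ± 0.027 and 0.388 ± 0.018, without overlap between db/+ and untreated islets (exact permutation test, two-sided p = 0.1, the smallest that 3 against 3 libraries allow).

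Pkm, which encodes the last enzyme of glycolysis and was the highest member of the lower steps per kilobase, stood at 595, 594 and 514 CPM in db/+, 396, 459 and 448 in untreated and 507, 444 and 415 in treated libraries. It was lower by 0.39 ± 0.12 (adjusted p = 0.011) and by 0.32 ± 0.12 (adjusted p = 0.0274) on the log2 scale, with the highest treated library just below the lowest db/+ library. The first call was lost without db/+ library 1 (adjusted p = 0.0534) and with no filter on low counts (adjusted p = 0.0762), and the second without treated library 2 (adjusted p = 0.102) or 3 (adjusted p = 0.149), with no filter (adjusted p = 0.0695) and with a replicate block (-0.32, adjusted p = 0.0513). Ldhb, which encodes the heart-type lactate dehydrogenase subunit, stood at 18.4, 27.0 and 22.8 CPM in db/+, 6.21, 10.02 and 9.18 in untreated and 7.55, 8.501 and 12.2 in treated libraries. It fell without overlap by 1.42 ± 0.22 (adjusted p = 0.000161) and by 1.27 ± 0.22 (adjusted p = 0.000307).

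**Figure D3:**
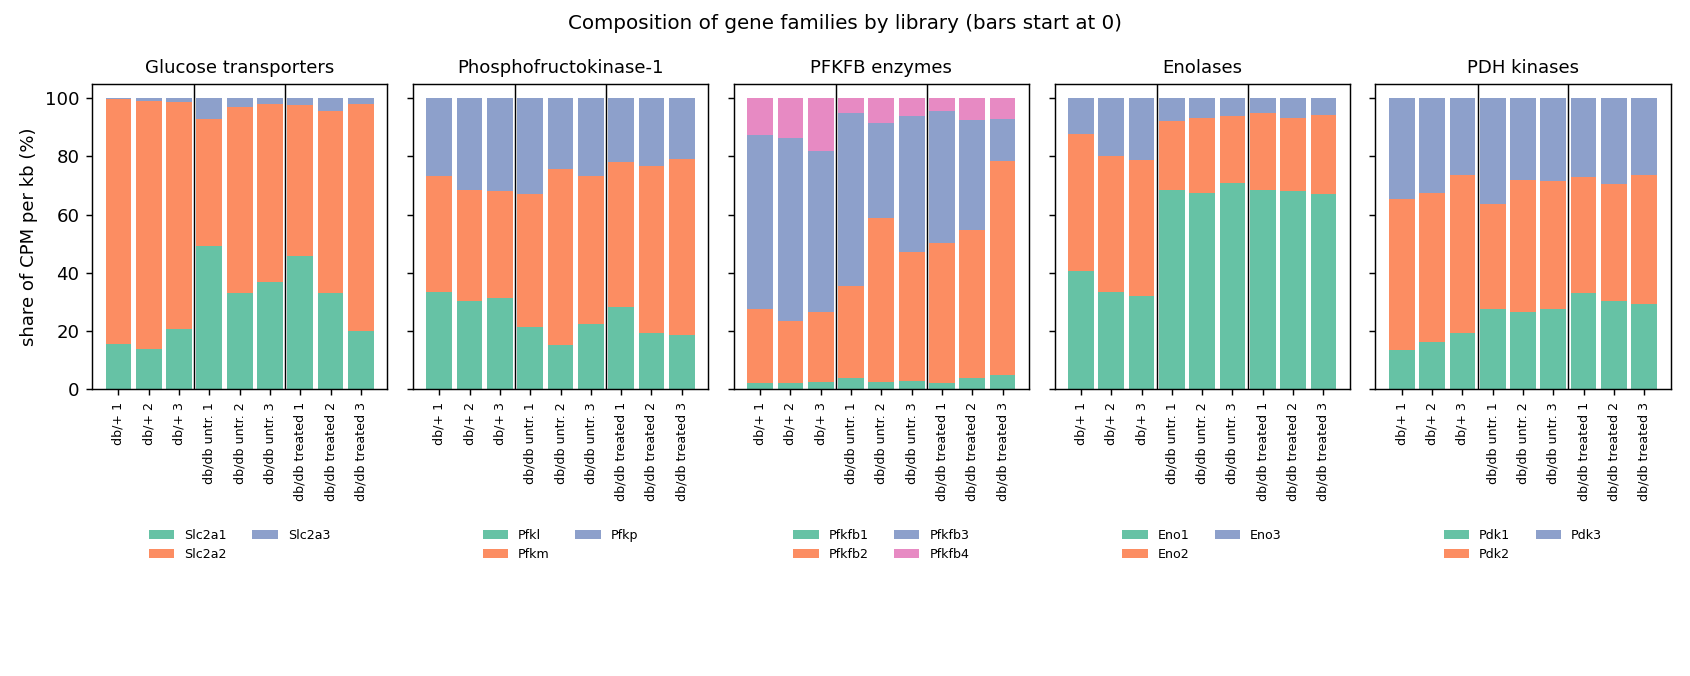
Share of each gene in the summed CPM per kilobase of its family (percent, bars from 0 to 100) in each library, for the listed glucose transporters, phosphofructokinase-1 subunits, PFKFB enzymes, enolases and PDH kinases. Eno1 takes 31.9% to 40.7% of the enolases in db/+ libraries and 67.1% to 70.8% in db/db libraries, while the shares of Pfkfb2 and Pfkfb3 vary within the db/db groups.

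At the mitochondrial entry of pyruvate, pyruvate carboxylase fell and the catalytic subunit of the PDH complex rose, while 3 of the 5 PDH members did not pass in untreated islets. Pcx, which encodes the carboxylase that refills the citric acid cycle, stood at 103, 116 and 121 CPM in db/+, 27.8, 30.5 and 34.4 in untreated and 34.4, 32.6 and 38.1 in treated libraries. It fell to 0.273 and 0.309 times the db/+ level, by 1.88 ± 0.11 (adjusted p = 6.92e-08) and by 1.70 ± 0.11 (adjusted p = 9.08e-08) on the log2 scale, and the db/db groups overlapped. Pdha1, which encodes the catalytic subunit of the complex and the target of its kinases, stood at 55.5, 38.7 and 41.1 CPM in db/+, 82.5, 88.5 and 85.4 in untreated and 95.01, 91.9 and 97.4 in treated libraries. It rose by 0.92 ± 0.12 (adjusted p = 2.78e-05) and 1.07 ± 0.12 (adjusted p = 6.52e-06) without overlap, and the treated libraries all lay above the untreated ones. The ratio of Pcx to Pdha1 per kilobase was 1.79 ± 0.44 in db/+ (SD, n = 3), 0.249 ± 0.025 in untreated and 0.254 ± 0.013 in treated islets. Exact two-sided permutation tests gave p = 0.1 for untreated against db/+, the smallest that 3 against 3 libraries allow, and p = 0.7 for treated against untreated islets. The 3 ratios computed were this one, Eno2 to Eno1 and Pdk1 to Pdha1, and none can pass an adjustment over them in this design.

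The other PDH subunits moved less than Pdha1. Pdhb, the second subunit of the same enzyme, stood at 58.3, 59.9 and 50.3 CPM in db/+, 49.998, 55.8 and 55.4 in untreated and 60.3, 59.5 and 55.3 in treated libraries, with all groups overlapping and no call. Dlat, the acetyl-transferring core, was higher by 0.29 ± 0.09 (adjusted p = 0.0153) and 0.39 ± 0.09 (adjusted p = 0.00219), and the first call was lost without untreated library 3 (adjusted p = 0.0551). Dld, a dehydrogenase shared with other complexes, stood at 86.8, 72.8 and 74.4 CPM in db/+, 84.8, 86.8 and 78.7 in untreated and 93.5, 92.7 and 92.3 in treated libraries. In untreated islets it passed only without db/+ library 1 (0.27, adjusted p = 0.00723). It was called higher in treated islets against db/+ (0.25 ± 0.09, adjusted p = 0.0269), a call lost without db/+ library 2 or 3 or treated library 1 or 2 (adjusted p from 0.0581 to 0.197). Pdhx, which anchors Dld, was at -0.23 ± 0.15 (adjusted p = 0.189) in untreated islets.

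The 3 PDH kinases among the members, whose phosphorylation of the complex turns it off, rose in both db/db groups against db/+. Pdk1 stood at 14.5, 13.8 and 14.3 CPM in db/+, 42.7, 51.9 and 49.2 in untreated and 76.95, 61.7 and 64.7 in treated libraries, so that the groups formed 3 levels without overlap. It rose 3.38-fold (log2 1.76 ± 0.12, adjusted p = 1.71e-07) and 4.78-fold (2.26 ± 0.12, adjusted p = 2.36e-08). Pdk2, the kinase with the highest level per kilobase, stood at 24.2, 19.3 and 17.3 CPM in db/+, 24.3, 38.9 and 34.0 in untreated and 40.2, 35.6 and 43.0 in treated libraries, and rose by 0.68 ± 0.17 (adjusted p = 0.00497) and 0.97 ± 0.17 (adjusted p = 0.000413). Its lowest untreated library lay only just above the highest db/+ library. Pdk3 rose by 0.76 ± 0.14 (adjusted p = 0.000451) and 0.93 ± 0.14 (adjusted p = 7.5e-05). Per kilobase, Pdk1 went from 16.2% ± 3.0 of the 3 kinases in db/+ to 27.2% ± 0.7 in untreated and 30.8% ± 2.0 in treated libraries. The phosphatases that turn the complex on again did not pass: Pdp1 was at 0.31 ± 0.18 (adjusted p = 0.156) in untreated islets and Pdp2 at 0.24 ± 0.16 (adjusted p = 0.195) in treated islets against db/+.

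**Figure D4:**
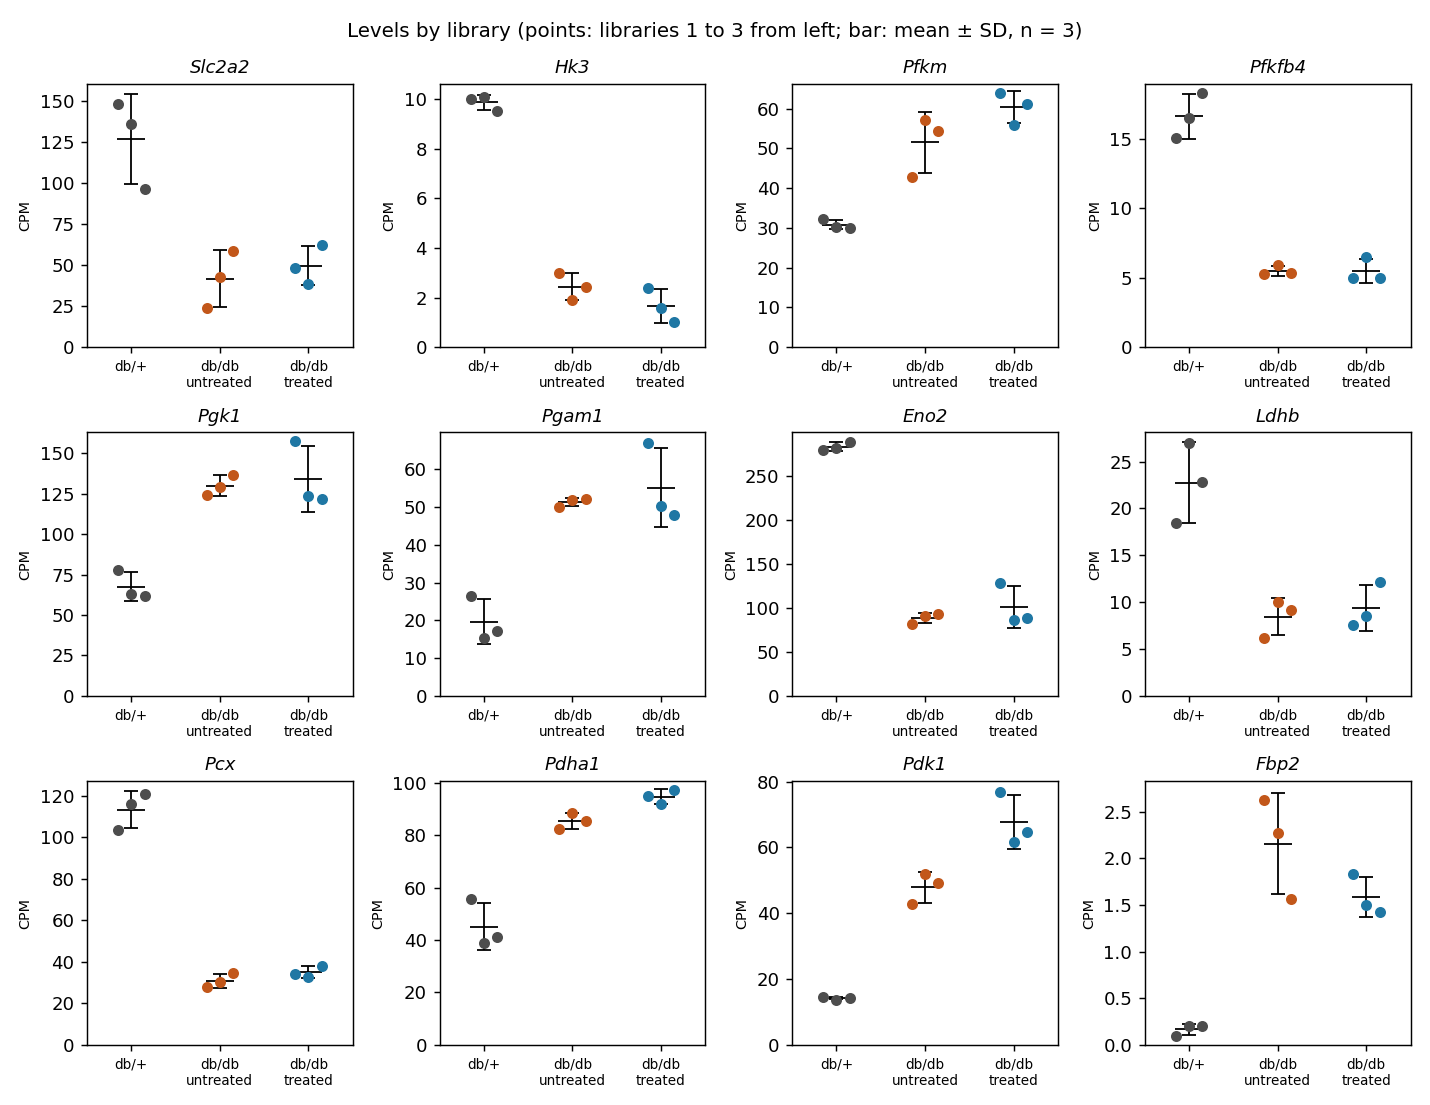
CPM of 12 members in each library (points, libraries 1 to 3 from left) with mean ± SD per group (bars, n = 3) on axes that start at 0. Slc2a2, Hk3, Pfkfb4, Eno2, Ldhb and Pcx are lower and Pfkm, Pgk1, Pgam1, Pdha1, Pdk1 and Fbp2 higher in every db/db library than in every db/+ library, and Pdk1 and Pdha1 also separate the treated from the untreated libraries.

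The mitochondrial pyruvate carrier, made of Mpc1 and Mpc2, changed little. Mpc2, the more abundant per kilobase, stood at 38.4, 32.4 and 29.9 CPM in db/+, 27.0, 31.4 and 30.0 in untreated and 28.4, 28.0 and 27.5 in treated libraries. Its fall in treated islets (-0.26 ± 0.11, adjusted p = 0.0474) was lost in 14 of 18 alternatives, among them the fits without db/+ library 1 or any db/db library. The rise of Mpc1 there (0.33 ± 0.13, adjusted p = 0.0396) was lost in 8, among them the fits without db/+ library 2 or 3 or any treated library. In untreated islets Mpc1 was at 0.29 ± 0.13 (adjusted p = 0.0668) and passed in 7 of 18 alternatives (adjusted p from 0.0172 to 0.047): without db/+ library 1 or 3 or untreated library 3, with DESeq2 size factors or upper-quartile factors, with no filter on low counts and with transcripts added up. Gpd2, the mitochondrial arm of the glycerol phosphate shuttle that carries glycolytic electrons into the respiratory chain, stood at 39.4, 38.1 and 39.5 CPM in db/+, 39.4, 37.7 and 46.1 in untreated and 46.2, 48.8 and 50.9 in treated libraries. All treated libraries lay above all others, the nearest untreated one only just, and the rise against db/+ was 0.32 ± 0.10 (adjusted p = 0.0107), lost without db/+ library 2 (adjusted p = 0.0846).

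Of the fructose bisphosphatases, which run the phosphofructokinase step in reverse, the muscle isoform Fbp2 was close to absent in db/+ islets. It held 1, 2 and 2 counts in db/+, 36, 36 and 22 in untreated and 26, 23 and 22 in treated libraries, or 0.0990, 0.204 and 0.199 CPM against 1.57 to 2.63 and 1.42 to 1.83. The ratio of scaled totals to db/+ was 12.9 (exact 95% counting interval 5.35 to 40.7) in untreated and 9.47 (3.87 to 30.1) in treated islets, and edgeR called both (adjusted p = 1.76e-05 and 5.37e-05). The intervals cover counting error only. Fbp1, the liver isoform, stood at 0.990, 1.63 and 3.57 CPM in db/+, 2.78, 2.58 and 3.49 in untreated and 2.05, 3.01 and 1.55 in treated libraries. It overlapped between all groups (0.51 ± 0.41, adjusted p = 0.293), but was called higher in untreated islets without db/+ library 3, its highest db/+ library (1.20, adjusted p = 0.0223).

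No member passed between treated and untreated db/db islets, but 6 separated the libraries of these groups without overlap, all higher in treated islets: Pfkfb2, Pdha1, Dld, Pdk1, Pdk3 and Gpd2. Over all genes 27.6% did so, 19% in that direction. The nearest to the threshold was Pdk1, at 1.41-fold (log2 0.50 ± 0.11, adjusted p = 0.0724 by edgeR). It passed in 3 of 18 alternatives: with DESeq2 (adjusted p = 0.0104), with no filter on low counts (adjusted p = 0.0469) and without untreated library 2 (adjusted p = 0.0374), and over all alternatives the adjusted p reached 0.251. Pfkfb2 passed with DESeq2 alone (adjusted p = 0.0435), and Gpd2 was at 0.24 ± 0.10 (adjusted p = 0.222). The ratio of Pdk1 to Pdha1 per kilobase was 0.175 ± 0.030 in db/+, 0.307 ± 0.020 in untreated and 0.392 ± 0.045 in treated islets, without overlap between any 2 groups (exact permutation test, two-sided p = 0.1 for each step, the smallest possible). The log2 fold changes of the 40 members ran from -1.13 for Hk2 to 0.50 for Pdk1, with a median of 0.07 over the members and over all genes.

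**Figure D5:**
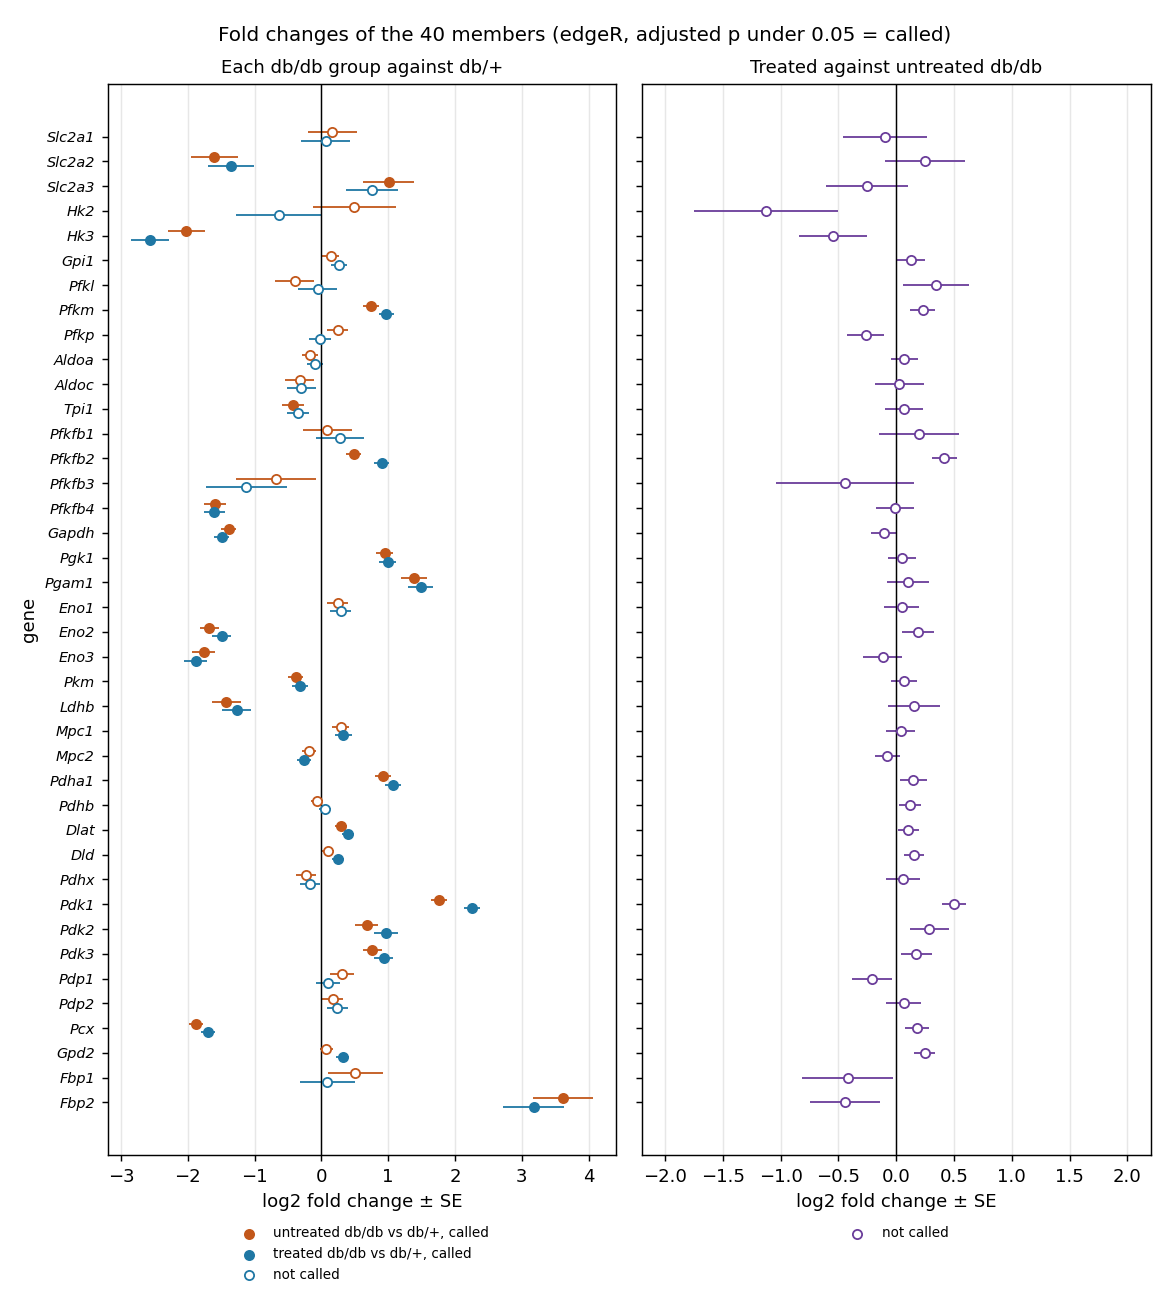
Log2 fold change ± SE of each member in untreated and treated db/db islets against db/+ (left) and in treated against untreated db/db islets (right), filled where the adjusted p was under 0.05. Filled points run from Hk3 at -2.57 to Fbp2 at 3.62 on the left, and 0 points are filled on the right.

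Other genes of the pathway, taken from lists, moved in both directions, as did genes at large. Over all genes tested, 31.3% were higher and 32% lower in untreated islets against db/+. Of 20 other glycolysis genes tested, 10 were higher and 4 lower in that comparison. Slc2a13, a myo-inositol transporter of the same family, rose by 2.30 ± 0.27 in untreated and 2.63 ± 0.27 in treated islets on the log2 scale, and Pklr, the liver-type pyruvate kinase, by 1.20 ± 0.17 and 1.52 ± 0.17. Pgm2, a phosphopentomutase, rose by 1.002 ± 0.12 and 1.01 ± 0.12. Of 11 other genes of pyruvate entry, 7 were higher and 2 lower, among them Pdpr, a regulator of the PDH phosphatase (1.43 ± 0.12), and the mitochondrial malic enzymes Me2 (0.90 ± 0.09) and Me3 (1.896 ± 0.22). Of 16 genes of glucose-6-phosphate use and the pentose phosphate pathway, 8 were higher and 4 lower. Pgls (-1.41 ± 0.09) and Rpia (-1.19 ± 0.10), which act in the pentose pathway, fell, while other genes of that pathway in the list were called higher. Gfpt1, which starts the hexosamine pathway, rose by 1.29 ± 0.12. Of 10 genes of the electron shuttles, 5 were higher and 2 lower: Got1 (0.80 ± 0.10) and Mdh1 (0.88 ± 0.14) of the malate-aspartate shuttle rose and Slc25a22, a mitochondrial glutamate carrier, fell by 0.98 ± 0.10. The genes named here passed edgeR's test in untreated islets against db/+. In treated islets against db/+ the counts were 8 higher and 4 lower, 8 and 2, 6 and 3, and 5 and 1 in the same order of lists. Gpd1l, a glycerol-3-phosphate dehydrogenase, was among the higher ones at 0.94 ± 0.12. Over all genes 32.8% were higher and 32.5% lower there. Between treated and untreated islets 0 genes of these lists passed edgeR's test, against 0.179% of all genes.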

How the data were processed

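The authors deposited 1 table of raw read counts, per the file headers, with 139023 RefSeq transcripts, their lengths in bases and 9 libraries. The submitters' processing notes name cutadapt 1.9.1, HISAT2 2.2.1, featureCounts 2.0.0 and build GRCm39. RNA was column-purified and the library kit keeps strand, per the labels' protocols; the sources used here do not give the strand setting or the handling of multiply aligned reads, so genes overlapping an antisense partner are uncertain. Reads appear to be counted in every transcript they overlap, so each gene was taken by its transcript with the highest total.

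From these counts edgeR 4.0.16 (R 4.3.3; filterByExpr by group with a minimum count of 10, TMM factors, robust quasi-likelihood F-test, 3 group means, all 9 libraries, no covariate) gave log2 fold changes, standard errors and p-values, adjusted by Benjamini-Hochberg over 16761 genes. DESeq2 1.42.0 and limma 3.58.1 (voom) were alternatives. CPM were scaled by TMM factors, and levels per kilobase use a curated coding transcript. The test was checked on simulated counts with 200 changed genes. Far more genes were called against db/+ here, so that setting was not checked. Depth of 10292664 to 15281806 counts per library makes 1 count worth 0.063 to 0.102 CPM. All replicate pairs differed beyond sampling noise. Values in every library are given for members at least 2-fold changed and called, and for the highest member per kilobase of each role; of other lists the 3 smallest p are named, except 1 gene that is not reported here. The members and lists were chosen with earlier results of these data known. Tables and figures used Python 3.11.15, pandas 2.3.3 and matplotlib 3.10.9.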

Additional observations from a re-analysis of the deposited data

How the results depend on the processing

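Single-gene values were compared over 18 alternatives for members that were called or at least 0.2 from 0 on the log2 scale and for the other genes named: 1837 kept their direction and side of the threshold, 18 newly passed, 49 no longer passed and 4 changed sign. Those 4, all without a call after the change, were Pfkfb2 in untreated islets against db/+ with transcripts added up (-0.055) and, between treated and untreated islets, Slc2a2 (-0.027) and Slc2a3 (0.16) without untreated library 1 and Pfkl (-0.044) without treated library 1. With each library left out in turn these last ran from -0.027 to 0.57, from -0.46 to 0.16 and from -0.044 to 0.54. The cause was not tested. Of the 756 values of smaller, uncalled member differences, 110 changed sign, in 26 of 42 gene comparisons and never with a call, and 2 were called (Gpi1 and Dld). Members called against db/+ ran from 10 to 13 higher and 8 to 10 lower in untreated islets and from 10 to 14 and 8 to 10 in treated islets, while all genes called ran from 20.5% to 35.7% higher and 16.1% to 32% lower and from 19.4% to 34.6% and 18.3% to 33.6%.

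Between treated and untreated islets the calls depended on the setting. Members called higher numbered 2 with DESeq2, 1 with no filter on low counts and 0 to 1 when each library was left out. All genes called higher (1 in the reported test) numbered 135 with DESeq2, 12 with no filter, 2 with curated coding transcripts only, which was added after seeing the data, and 0 with DESeq2 size factors, upper-quartile factors, limma-voom, transcripts added up or only the 2 groups compared, and 0 to 67 with a library left out. All genes called lower (29) numbered 496, 215, 7 with limma-voom, 9 with transcripts added up, 0 with only the 2 groups, 115 with a replicate block, and 6 to 371 with a library left out; both highest counts, 67 and 371, were without untreated library 2. Upper-quartile factors shifted the median gene by 0.11 (log2) in untreated islets against db/+.

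Replicate numbers are shared between groups, but same-numbered samples did not deviate together (correlations from -0.43 to 0.06), so no pairing was assumed. With the replicate block members called were 10 higher and 9 lower in untreated islets against db/+ (all genes 29.5% and 30.4%), 0 between treated and untreated islets (0.692%), and 12 higher and 8 lower in treated islets against db/+ (31.2% and 31.1%). Low counts limit Fbp2, Fbp1, Pfkfb1 and Slc2a3, which held 1 to 82 counts in a library. They also limit Hk3, with 16 to 41 counts in db/db libraries, and Hk2 in treated library 3, with 18.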

Other observations

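Pfkp, the platelet-type phosphofructokinase subunit, is listed with 10 transcripts. The ratio of untreated db/db to db/+ islets was 2.07 and 2.47 for transcripts of 7433 and 9198 bases and 1.13 to 1.19 for the other 8. The shorter of these stood at 14.5 ± 1.9 CPM in db/+ (SD, n = 3), 30.0 ± 5.8 in untreated and 25.5 ± 4.4 in treated islets, and the longer at 11.2 ± 1.5, 27.7 ± 6.2 and 23.3 ± 4.7, with no overlap between db/+ and either db/db group. This difference between transcripts was singled out after the values were seen and was not tested.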
